A study of Mus musculus with 12 samples.

Results

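Genes of vesicle fusion, coat formation and membrane sorting were followed in the hippocampus of mice lacking CREB and CREM and of control mice, after kainate or saline. The members are the probe sets whose only platform gene symbol begins with Syt, Stx, Snap, Vamp, Vps, Snx or Exoc, with Sec and a digit, or with Copb, Copg, Ap1, Ap2 or Ap3, Syt4 excepted. They number 75 of the 11868 probe sets on the array, controls left out, and stand for 60 of its 5933 named genes. Of these, 25 probe sets of 20 genes reached a log2 value of 4 on at least 3 of the 12 arrays and could be tested (33.3%, against 29.8% of all probe sets). No tested member passed an adjusted p of 0.05 in any comparison, against 0% to 0.141% of all tested probe sets, depending on the comparison.

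The study crosses genotype with treatment in 4 groups of 3 arrays. The groups are mutant mice given kainate, mutant mice given saline, control mice given kainate and control mice given saline. Kainate, an agonist of ionotropic glutamate receptors that provokes seizures, was given intraperitoneally at 20 mg/kg, and all animals were killed 1 hour after the injection. Per the labels, males and females from shared litters, aged 5 to 6 weeks, were used, caged singly and handled for 5 days. Each array carries RNA pooled from 3 animals, so the replicates are pools and the spread between single animals is not seen. The labels do not give the alleles of either genotype or the cells in which the deletion took place. In whole hippocampus, fewer cells of a type and less RNA per cell cannot be told apart. None of the 12 marker genes listed for hippocampal neurons (0 measured) has a probe set of its own here, so the labelled tissue was not checked against them.

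Membrane traffic works by budding and fusion. Coat complexes (COPII at the endoplasmic reticulum, COPI at the Golgi, clathrin with AP adaptors at later stations) shape a vesicle and select its cargo, tethers such as the exocyst hold it at its target, and SNARE proteins of the syntaxin, SNAP and VAMP families pull the membranes together. In neurons the same machinery releases transmitter, with synaptotagmins as calcium sensors and syntaxin-binding proteins as helpers or brakes of SNARE assembly. Sorting nexins and Vps proteins return receptors from endosomes or send them to lysosomes. CREB and CREM bind the cAMP response element, an 8-base palindrome, and its 5-base core.

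Promoter sequence was read for the members because the mutants lack factors that bind this element. RefSeq (GRCm38.p6) gave a window of 250 bases before the start for 50 of the 60 member genes and for 17 of the 20 tested ones. The palindrome TGACGTCA was found in 1 of the 50 (2%), against 1.77% of 27025 genes with a window, and in none (0) of the 17. The core, TGACG or its reverse complement CGTCA, which the palindrome also contains, was found in 16 of the 50 (32%) and in 2 of the 17 (11.8%), against 19.8% of all genes. A match is a description of these letters and no match says only that they are absent from the window. Windows are shown for the gene with the palindrome, for the 2 tested genes with the core, and for Syt11, whose probe set had the largest kainate difference among members. Capitals mark the palindrome or the core.
Ap2b1 (chr11:83302447-83302696, plus strand): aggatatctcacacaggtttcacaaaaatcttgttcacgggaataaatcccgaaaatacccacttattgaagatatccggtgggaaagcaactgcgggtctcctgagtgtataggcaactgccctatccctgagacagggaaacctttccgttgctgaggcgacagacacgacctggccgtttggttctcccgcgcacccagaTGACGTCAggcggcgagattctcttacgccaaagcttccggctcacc
Copb1 (chr7:114254681-114254930, minus strand): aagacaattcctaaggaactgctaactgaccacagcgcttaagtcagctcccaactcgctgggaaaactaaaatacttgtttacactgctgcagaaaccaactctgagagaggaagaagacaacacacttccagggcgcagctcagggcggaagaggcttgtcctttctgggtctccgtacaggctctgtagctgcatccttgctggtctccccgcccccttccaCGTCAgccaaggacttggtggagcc
Exoc5 (chr14:49066668-49066917, minus strand): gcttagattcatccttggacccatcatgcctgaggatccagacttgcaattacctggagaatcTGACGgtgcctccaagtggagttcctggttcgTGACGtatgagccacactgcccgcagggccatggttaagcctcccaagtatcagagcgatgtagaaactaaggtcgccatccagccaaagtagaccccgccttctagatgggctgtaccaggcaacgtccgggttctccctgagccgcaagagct
Syt11 (chr3:88772600-88772849, minus strand): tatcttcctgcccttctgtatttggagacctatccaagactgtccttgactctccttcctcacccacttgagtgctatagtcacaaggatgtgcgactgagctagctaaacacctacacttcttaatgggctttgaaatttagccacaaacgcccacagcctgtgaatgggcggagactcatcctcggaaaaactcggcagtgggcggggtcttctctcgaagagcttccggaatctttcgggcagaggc
The Ap2b1 palindrome begins 47 bases before the start, the Copb1 core 25 bases before it, and the Exoc5 cores 187 and 155 bases before it. Ap2b1, a subunit of the clathrin adaptor of endocytosis, read only 2.98 to 3.23 over the 12 arrays and was not tested. The Copb1 and Exoc5 values are given below with their families.

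All values are log2 GCRMA values. Tested members came from the synaptotagmins (7 of 10 probe sets), syntaxins (3 of 9), syntaxin-binding proteins (3 of 6), sorting nexins (2 of 10), exocyst (2 of 7), Sec genes (3 of 6), COPI (3 of 4) and AP-3 (2 of 3). All of the Vps (9), AP-1 (3), AP-2 (3), Snap (2), synaptotagmin-like (2) and Vamp (1) probe sets lay below the level. Of the 50 probe sets left out, 49 reached log2 4 on no array (0 of 12), and the other one, for the plasma membrane syntaxin Stx3, reached it on 2 arrays with 3.88 to 4.10. Just inside the limit, Snx31, a sorting nexin, reached it on 3 arrays with 3.93 to 4.08. Among the 40 genes read only below the level were Vamp4 (2.74 to 2.89), a SNARE of the trans-Golgi network, and Snap29 (3.64 to 3.93), a SNARE of autophagosome fusion. Others were Vps26a (2.77 to 2.96) of the retromer, Vps11 (2.55 to 2.72) and Vps18 (2.56 to 2.67) of the lysosomal tether, Vps4b (3.12 to 3.28), the ATPase that disassembles ESCRT filaments, Snx27 (2.44 to 3.50), an adaptor of the retromer, and Exoc4 (3.73 to 3.95) of the exocyst. A low value on this array bounds the signal of that probe set and does not show that the gene is off. Snapc3, Vps72 and Sec1 carry matching letters but act in small nuclear RNA transcription, chromatin and fucose transfer; all 3 lay below the level (1.30 to 1.42, 2.00 to 2.05 and 2.35 to 2.45).

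Of the tested probe sets 6 carry the suffix f, which marks probes shared with similar sequences. Another 3 carry r, which marks relaxed probe selection, and 2 carry i. Those with f read Copb1, Copg1, Exoc6, Snx32, Stx7 and Syt16, and their signal may include related transcripts.

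How the arrays differ bears on every result below. Correlations between arrays over tested probe sets ran from 0.818 to 0.994, and the array of mutant kainate replicate 3 correlated at 0.818 to 0.899 with the others. There 22 of 25 members (88%) read less than the average of replicates 1 and 2 of that group, as did 54.4% of all tested probe sets. Bright probe sets were low on this array in general. Among probe sets averaging log2 8 or more it was low for 6 of 7 members, against 92.4% of all, and between 6 and 8 for 10 of 10, against 84.6%. Between 4 and 6 it was low for 6 of 7 members, against 39.8% of all. It held the lowest of the 12 values for 19 of 25 members (76%), against 38.9% of all. The replicate 1 arrays resembled each other across groups (0.987 to 0.992) more than their own groups (0.818 to 0.968). The gap between the 3' and 5' actin control probe sets, which widens with degraded RNA or short labelled product, was 1.20 to 1.45 on the 4 kainate arrays of replicates 2 and 3, against 0.820 to 0.879 on the 4 saline arrays of those replicates. In replicate 1 it was 0.775 and 0.848 after kainate, against 0.974 and 0.944 after saline. The same gap for Gapdh overlapped slightly in replicates 2 and 3, at 0.397 to 0.603 after kainate, against 0.310 to 0.399 after saline. The astrocyte filament gene Gfap read 12.95 on control kainate replicate 3 where replicates 1 and 2 had 11.51 and 11.53. On mutant kainate replicate 3 it read 11.55 where replicates 1 and 2 had 12.82 and 13.03. The microglial gene Laptm5 read 10.44 on the control array, against 9.64 and 9.57, and 8.67 on the mutant array, against 10.12 and 10.31. P2ry12 moved the same way by less, and Slc1a2, Apoe, Pla2g7 and Cx3cr1 did not on both arrays. This bears on each genotype difference that uses the kainate groups, and its cause was not tested. Values are therefore also given without these 2 arrays, with replicate 1 against replicates 2 and 3 as a block.

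**Figure D1:**
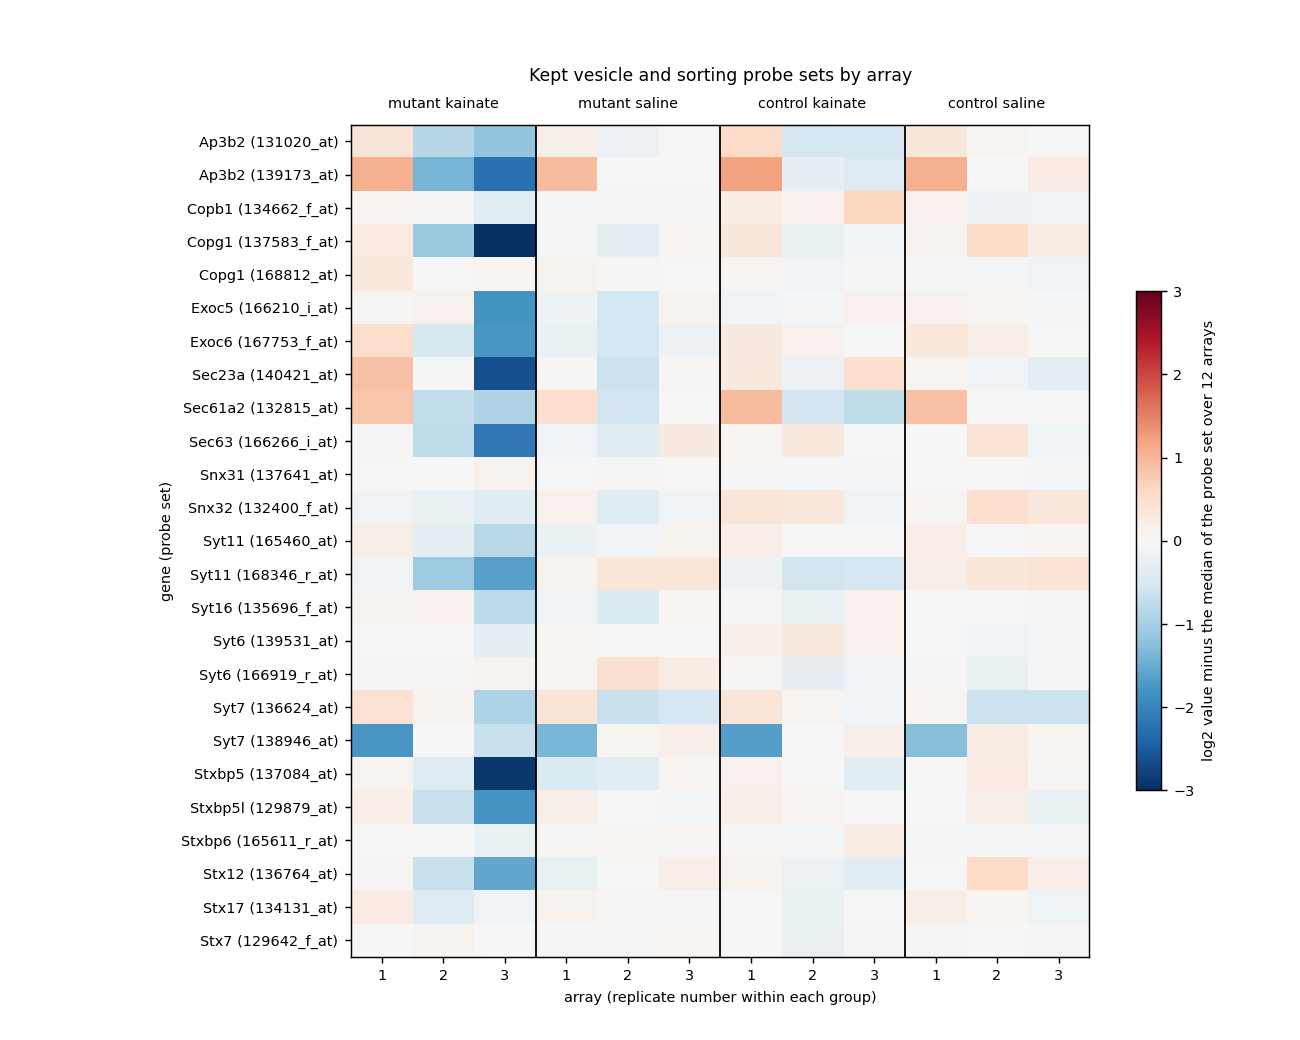
Each row is a tested probe set and each column an array, grouped as mutant kainate, mutant saline, control kainate and control saline; colour gives the log2 value minus the median of that probe set over the 12 arrays. Mutant kainate replicate 3 holds the lowest value for 19 of 25 rows, and the Syt7 138946_at, Sec61a2 and both Ap3b2 rows part replicate 1 from replicates 2 and 3 in every group.

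In 4 members replicate 1 stood apart from replicates 2 and 3 whatever the genotype or treatment. Both probe sets of Ap3b2, the neuronal beta subunit of the AP-3 adaptor that sorts synaptic vesicle and lysosomal cargo, read higher on every replicate 1 array (9.64 to 10.06 and 7.42 to 7.68) than on any array of replicates 2 and 3 (8.30 to 9.57 and 4.22 to 6.72). Sec61a2, a pore subunit of the translocon, did the same, with 5.88 to 6.34 against 4.47 to 5.40. Syt7, the slow high-affinity calcium sensor of asynchronous release, differed in opposite directions on its probe sets. Probe set 138946_at read 7.41, 9.16 and 8.49 in mutant kainate, against 7.80, 9.24 and 9.32 in mutant saline, and 7.51, 9.17 and 9.32 in control kainate, against 7.90, 9.38 and 9.26 in control saline, so replicate 1 lay lowest in every group with no overlap. Probe set 136624_at read 8.15, 7.80 and 6.78 in mutant kainate, against 8.09, 7.03 and 7.20 in mutant saline, and 8.06, 7.79 and 7.63 in control kainate, against 7.78, 7.05 and 7.06 in control saline, so replicate 1 lay highest in every group and overlapped slightly across groups. The differences, replicate 1 minus replicates 2 and 3, were -1.51 and 0.73. Replicate 1 stood apart in this way for 4 of 25 members (16%), against 9.07% of all tested probe sets. Whether RNA integrity plays a part was not tested.

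**Figure D2:**
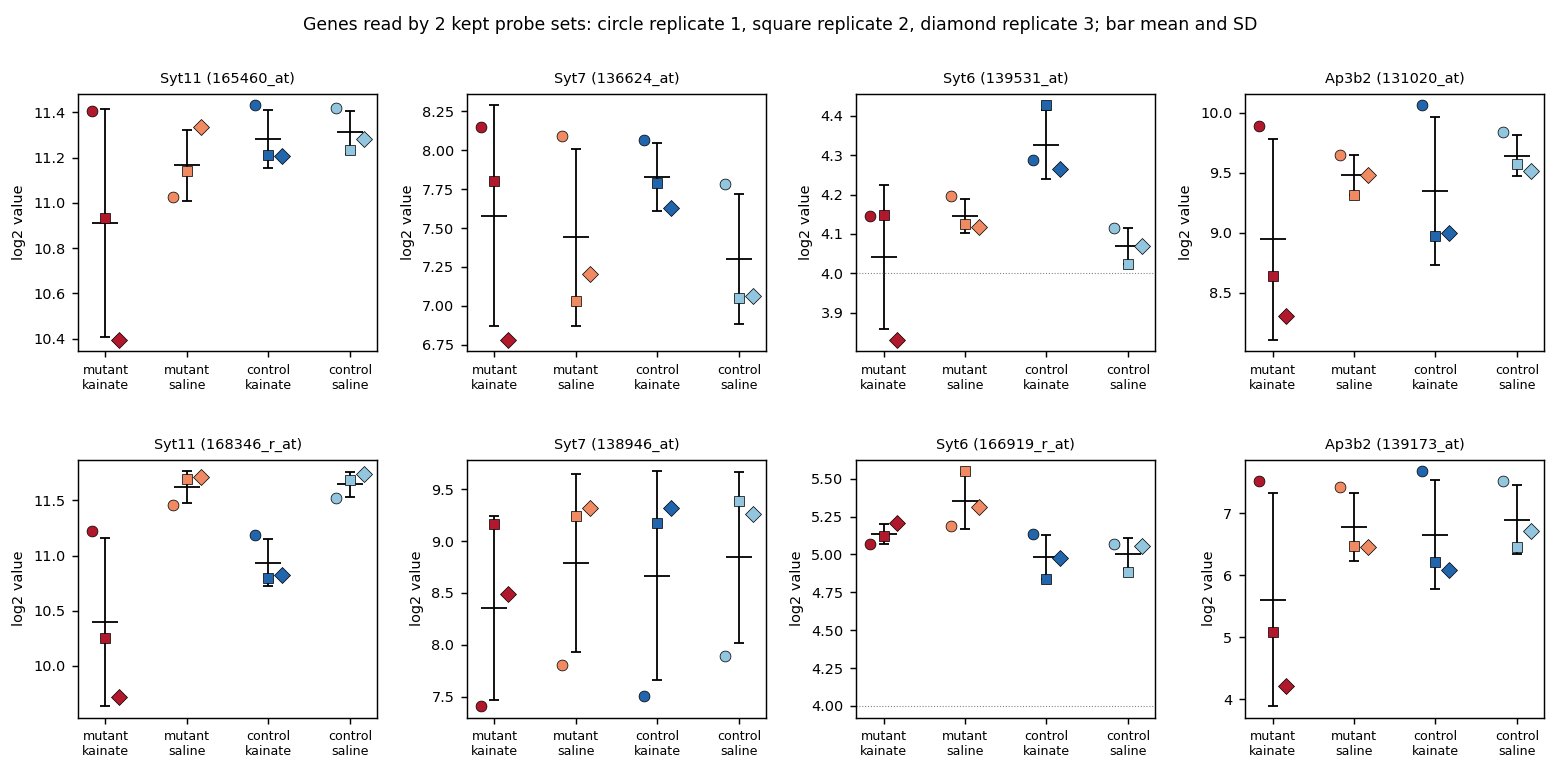
Log2 values of the 12 arrays for 4 genes with a pair of tested probe sets each, by group; circles, squares and diamonds are replicates 1, 2 and 3, and bars give the mean and SD of 3 arrays. Syt11 168346_r_at is lower on all kainate arrays (9.72 to 11.22) than on any saline array (11.46 to 11.74), while Syt11 165460_at overlaps.

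Among the synaptotagmins, Syt11 had the largest kainate difference. Syt11 belongs to the synaptotagmins that do not bind calcium and is known for restraining vesicle exocytosis and endocytosis. On probe set 168346_r_at it read 11.22, 10.25 and 9.72 in mutant kainate, against 11.46, 11.69 and 11.71 in mutant saline. In controls it read 11.19, 10.80 and 10.82 after kainate, against 11.52, 11.68 and 11.74 after saline. Every kainate array lay below every saline array in both genotypes, and mutant kainate spread most (mean 10.40 ± 0.76, SD, n = 3 arrays, against 11.62 ± 0.14 in mutant saline). The control means were 10.94 ± 0.22 after kainate and 11.65 ± 0.11 after saline. By limma the log2 difference was -1.22 ± 0.31 (SE) in mutants (adjusted p = 0.579), -0.71 ± 0.31 in controls (adjusted p = 1) and -0.96 ± 0.22 averaged over genotypes (adjusted p = 0.309). The averaged difference was -0.28 in replicate 1 alone and -1.31 in replicates 2 and 3 alone. Leaving out mutant kainate replicate 1 brought Syt11 past the threshold, at -1.63 in mutants (adjusted p = 0.00869) and -1.17 on average (adjusted p = 0.00447). In that fit 1.89% and 1.58% of all tested probe sets passed. Without the 2 arrays that stand apart and with the block, the averaged difference was -0.80 ± 0.19 (adjusted p = 0.196).

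The second Syt11 probe set did not follow. Probe set 165460_at read 11.41, 10.93 and 10.39 in mutant kainate, against 11.02, 11.14 and 11.34 in mutant saline, and 11.43, 11.21 and 11.21 in control kainate, against 11.42, 11.23 and 11.28 in control saline. The groups overlapped, with an averaged difference of -0.14 ± 0.15 (adjusted p = 0.779). It was 0.20 in replicate 1 and -0.31 in replicates 2 and 3, and -0.01 without mutant kainate replicate 3. The lowest Syt11 168346_r_at values sit on the same 4 arrays that have the wide actin gap. Its part in the result was not tested. The remaining Syt11 probe set lay far below the level (0.65 to 0.74).

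Syt6, a synaptotagmin studied in sperm exocytosis, was read near the dim level on probe set 139531_at. It had 4.15, 4.15 and 3.83 in mutant kainate, 4.20, 4.13 and 4.12 in mutant saline, 4.29, 4.43 and 4.27 in control kainate and 4.11, 4.02 and 4.07 in control saline. Control kainate lay above both control saline and mutant kainate with no overlap. The differences were 0.26 ± 0.09 for kainate in controls (adjusted p = 1) and -0.28 ± 0.09 for mutant against control after kainate (adjusted p = 0.55), which was -0.18 without mutant kainate replicate 3. At this level the size of such a difference is uncertain. On its other probe set, 166919_r_at, kainate in controls gave -0.02 ± 0.11, with overlapping groups.

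Syt7 gave averaged kainate differences of 0.33 ± 0.28 (adjusted p = 0.711) on 136624_at and -0.31 ± 0.48 (adjusted p = 0.855) on 138946_at, opposite in sign and neither past the threshold. The first was 0.19 without mutant kainate replicate 1 and 0.53 without mutant kainate replicate 3, and the second was -0.02 without control kainate replicate 1. In controls every replicate 2 and 3 array of 136624_at was higher after kainate than after saline, and in mutants they overlapped. Syt16, a synaptotagmin without a membrane anchor, ran from 8.57 to 9.50 over the arrays and differed by -0.03 ± 0.16 with kainate.

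No SNARE or SNARE partner passed the kainate test. Stx12, the syntaxin of recycling endosomes, read 6.76, 6.07 and 5.17 in mutant kainate, against 6.51, 6.74 and 6.92 in mutant saline. In controls it read 6.83, 6.54 and 6.41 after kainate, against 6.71, 7.32 and 6.92 after saline. Groups overlapped through replicate 1, where Stx12 was 0.18 higher after kainate, and in replicates 2 and 3 the difference was -0.93 with no overlap. The averaged difference was -0.56 ± 0.24 (adjusted p = 0.43). It was -0.35 without mutant kainate replicate 3 and -0.31 ± 0.19 without the 2 arrays that stand apart and with the block (adjusted p = 0.502). Stx17, the syntaxin of autophagosomes, ran from 5.78 to 6.40 and differed by -0.11 ± 0.11. Stx7 of late endosomes ran from 3.86 to 4.18, around the level.

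Stxbp5, tomosyn, a brake on SNARE assembly, read 8.42, 7.94 and 5.45 in mutant kainate, against 7.91, 8.02 and 8.40 in mutant saline. In controls it read 8.47, 8.32 and 8.01 after kainate, against 8.36, 8.59 and 8.38 after saline. A single array, mutant kainate replicate 3, was low, and the averaged difference of -0.51 ± 0.44 did not pass (adjusted p = 0.726) and was -0.05 without that array. Stxbp5l, its paralogue, was low on a pair of arrays, with 7.05, 6.18 and 5.07 in mutant kainate, against 7.01, 6.84 and 6.79 in mutant saline, and flatter controls (7.02, 6.93 and 6.83 after kainate, against 6.86, 7.02 and 6.64 after saline). Its interaction was not past the threshold, at -0.86 ± 0.55 (adjusted p = 0.973), and it was -0.35 without mutant kainate replicate 3. Stxbp6, amisyn, a SNARE-binding inhibitor of fusion, stayed between 5.35 and 5.81.

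Coat, translocon and tether genes did not pass the kainate test either. Ap3b2 on 131020_at read 9.89, 8.64 and 8.30 in mutant kainate, against 9.64, 9.31 and 9.48 in mutant saline. In controls it read 10.06, 8.98 and 9.00 after kainate, against 9.84, 9.57 and 9.52 after saline. On 139173_at it read 7.53, 5.08 and 4.22 in mutant kainate, against 7.42, 6.47 and 6.46 in mutant saline, and 7.68, 6.22 and 6.08 in control kainate, against 7.53, 6.46 and 6.72 in control saline. In replicates 2 and 3 both Ap3b2 probe sets were lower after kainate with no overlap (-0.74 and -1.13), and in replicate 1 they were higher (0.24 and 0.13). The averaged differences, -0.41 ± 0.29 (adjusted p = 0.637) and -0.71 ± 0.56 (adjusted p = 0.687), did not pass and were -0.25 and -0.36 without mutant kainate replicate 3. Sec61a2 had the same form, -0.61 in replicates 2 and 3 and 0.21 in replicate 1.

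COPI returns cargo from the Golgi to the endoplasmic reticulum. Copb1, its beta subunit, read 4.36, 4.23 and 3.97 in mutant kainate, against 4.25, 4.32 and 4.26 in mutant saline. In controls it read 4.52, 4.42 and 4.93 after kainate, against 4.42, 4.13 and 4.20 after saline, so control kainate lay just above control saline. The difference in controls was 0.37 ± 0.15 (adjusted p = 1). It was 0.22 without control kainate replicate 3 and 0.20 ± 0.08 without the 2 arrays that stand apart and with the block (adjusted p = 0.772). Copg1, the gamma subunit, read 7.12, 5.77 and 3.89 on 137583_f_at in mutant kainate, against 6.83, 6.58 and 6.92 in mutant saline (-1.18 ± 0.63, adjusted p = 0.586, and -0.33 without mutant kainate replicate 3). Its control values were 7.23, 6.66 and 6.80 after kainate, against 6.99, 7.42 and 7.11 after saline. Its probe set 168812_at lay at 4.21 to 4.62 and differed by 0.07 ± 0.08 in mutants.

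Sec23a, the inner COPII coat, read 7.99, 7.07 and 4.46 in mutant kainate, against 7.14, 6.46 and 7.13 in mutant saline, so both the highest and the lowest of its 12 values lay in mutant kainate. Its control values were 7.38, 6.91 and 7.58 after kainate, against 7.19, 7.01 and 6.82 after saline, and its averaged kainate difference was -0.06 ± 0.51, and 0.45 without mutant kainate replicate 3. Sec63, which couples the translocon to a lumenal chaperone, read 6.78, 5.99 and 4.58 in mutant kainate, against 6.67, 6.38 and 7.01 in mutant saline, with 6.79, 7.04 and 6.76 in control kainate, against 6.72, 7.15 and 6.60 in control saline. Among the exocyst subunits, Exoc5 read 9.39, 9.48 and 7.57 in mutant kainate, against 9.21, 8.83 and 9.46 in mutant saline, and Exoc6 read 8.50, 7.50 and 6.22 in mutant kainate, against 7.76, 7.44 and 7.80 in mutant saline. In controls Exoc5 read 9.27, 9.31 and 9.48 after kainate, against 9.49, 9.41 and 9.32 after saline, and Exoc6 read 8.25, 8.09 and 7.97 after kainate, against 8.27, 8.18 and 7.97 after saline. In each of these the mutant kainate replicate 3 array held the lowest value, and none passed.

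The members were also read as a group. The shares over all tested probe sets were not matched to them for brightness. Of the 25 members 7 averaged log2 4 to 6, against 2240 of the 3541 tested probe sets, and mutant kainate replicate 3 differed by level as given above. With kainate in mutants 21 of 25 members were negative (84%), with a median of -0.26, against 73.5% and -0.08 over all tested probe sets. The adjusted test called 0 of 25, against 0.0282% of all, and an unadjusted p under 0.05 was reached by 1 of 25, against 8.47%. Groups did not overlap for 2 of 25 (8%), against 10.1%. Without mutant kainate replicate 3 the members' median was -0.02 and that of all probe sets -0.05. In controls 17 of 25 were negative (68%), against 46.9% of all, with a median of -0.04, against 0.01 over all. Without control kainate replicate 3 the members' median was 0.01 with 12 of 25 negative, against 0.02 and 42.6% over all. With all control arrays 0 of 25 were called, against 0.0282%; 3 of 25 reached an unadjusted p under 0.05, against 4.46%; and 3 of 25 did not overlap (12%), against 10.6%.

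Averaged over genotypes 0 of 25 passed, against 0.141% of all probe sets, and 2 reached an unadjusted p under 0.05 (Syt11 and Stx12), against 11.3%. Syt11 was the single member with no overlap between all kainate and all saline arrays, 1 of 25 (4%) against 0.847%. The replicate numbers gave different pictures. In replicate 1, with 2 arrays on each side, 10 of 25 members (40%) were higher after kainate with no overlap, against 17.8% of all, and 2 (8%) were lower, against 9.15%. In replicates 2 and 3, 0 of 25 were higher, against 3.87%, and 5 (20%) were lower, against 12.1%. The 5 were Syt11 168346_r_at, Stx12, Sec61a2 and both probe sets of Ap3b2. The division by replicate number was chosen with the values known.

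**Figure D3:**
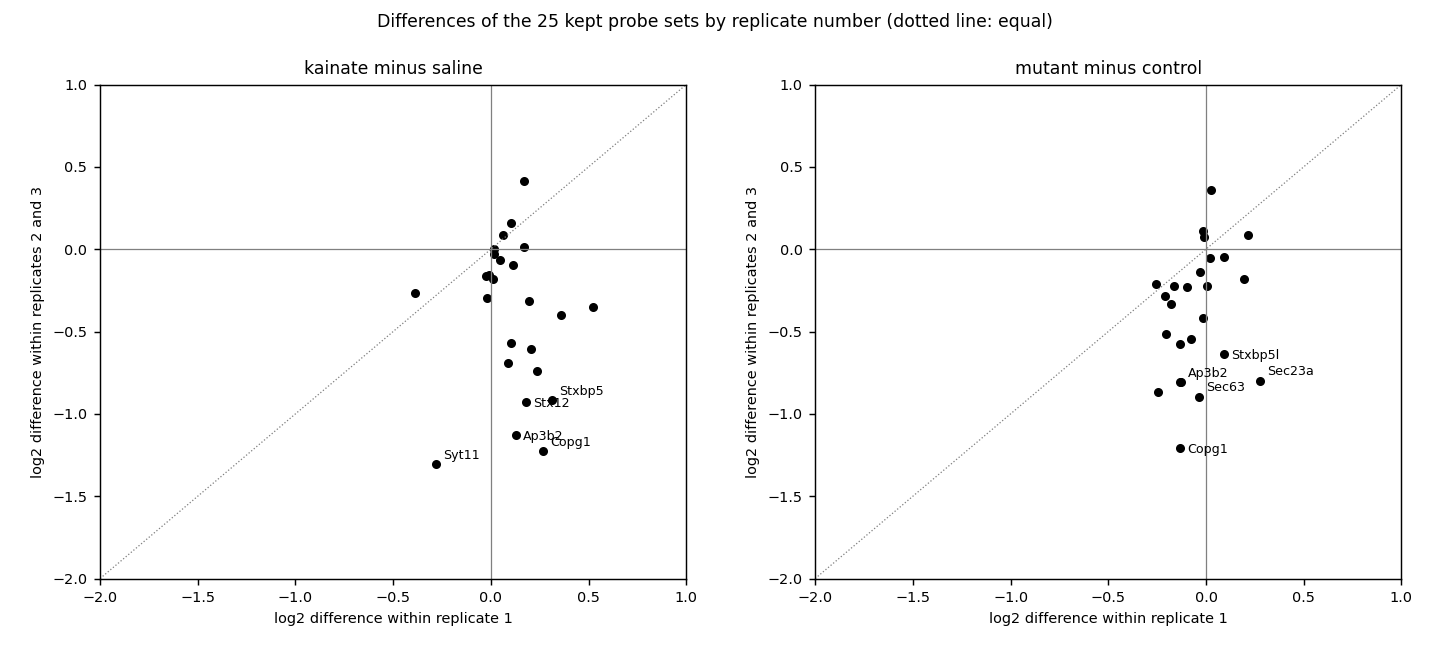
Log2 differences of the 25 tested members within replicate 1 (horizontal) against replicates 2 and 3 (vertical), kainate minus saline on the left and mutant minus control on the right; each point is a probe set, and the 5 farthest from the dotted line of equality are named. For kainate, Ap3b2, Stx12, Copg1 and Stxbp5 are positive in replicate 1 and negative in replicates 2 and 3, and Syt11 is negative in both.

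The next comparison asks how loss of CREB and CREM bears on these genes. Snx32, a sorting nexin related to Snx5 and Snx6 of the endosome-to-Golgi route, had the smallest p among members for genotype averaged over treatments. It read 6.62, 6.51 and 6.36 in mutant kainate, against 7.08, 7.04 and 6.62 in control kainate, and 6.86, 6.36 and 6.64 in mutant saline, against 6.81, 7.22 and 7.04 in control saline. The kainate groups lay apart by less than the rounding at 6.62, and the saline groups overlapped through replicate 1. The averaged difference was -0.41 ± 0.12 (adjusted p = 0.247), with -0.21 in replicate 1 and -0.51 in replicates 2 and 3. It was -0.45 ± 0.12 without the 2 arrays that stand apart and with the block (adjusted p = 0.168), and -0.17 ± 0.15 after quantile normalization. Its relatives Snx5 (2.17 to 2.32) and Snx6 (3.43 to 3.59) lay below the level.

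Syt6 on 166919_r_at read 5.07, 5.12 and 5.20 in mutant kainate, against 5.13, 4.84 and 4.97 in control kainate, and 5.19, 5.55 and 5.31 in mutant saline, against 5.07, 4.89 and 5.05 in control saline. The saline groups did not overlap (0.35 ± 0.11, adjusted p = 0.385) and the kainate groups did. Averaged over treatments the difference was 0.25 ± 0.08 (adjusted p = 0.247), with 0.03 in replicate 1 and 0.36 in replicates 2 and 3. The probe set 139531_at gave -0.10 ± 0.06 on average, opposite in sign. Copg1 168812_at was 0.13 ± 0.06 higher in mutants on average (adjusted p = 0.268), with 4.62, 4.31 and 4.36 in mutant kainate, against 4.37, 4.23 and 4.28 in control kainate, and 4.41, 4.35 and 4.31 in mutant saline, against 4.24, 4.27 and 4.21 in control saline, while Copg1 137583_f_at went the other way.

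Larger genotype differences after kainate rested in part on single arrays. Sec63 had -1.08 ± 0.46 (adjusted p = 0.55), but -0.01 in replicate 1 and -0.48 without mutant kainate replicate 3. Copg1 137583_f_at had -1.30 ± 0.63 (adjusted p = 0.55), and -0.45 without that array. Copb1, at -0.43 ± 0.15 with no overlap (adjusted p = 0.55), had -0.16 in replicate 1, -0.33 without mutant kainate replicate 3, -0.28 without control kainate replicate 3 and -0.17 ± 0.09 without the 2 arrays that stand apart and with the block. After saline Exoc6 was lower in mutants on every array (7.76, 7.44 and 7.80, against 8.27, 8.18 and 7.97 in controls), with a difference of -0.47 ± 0.45 that did not pass (adjusted p = 0.845).

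The genotype differences were read over the members as a group too, again without matching all probe sets to them for brightness. After saline 15 of 25 were negative (60%), against 41.3% of all tested probe sets, with a median of -0.10, against 0.04 over all. The sign of the members' median turned on 1 array. Without mutant saline replicate 2 it was 0.004 with 12 of 25 negative, against 0.04 and 38.6% over all. Quantile normalization gave -0.03, against 0.02 over all. After saline 0 were called, against 0% of all. An unadjusted p under 0.05 was reached by 2 of 25, against 12.1%, and 7 of 25 did not overlap (28%), against 34.1%. After kainate 21 of 25 were negative (84%), against 53.5% of all, with a median of -0.40, against -0.03 over all. Without mutant kainate replicate 3, 15 of 25 were negative, against 42.7% of all, with a median of -0.08, against 0.02 over all. With all arrays 0 were called after kainate, against 0% of all; 4 reached an unadjusted p under 0.05, against 4.72%; and 3 did not overlap (12%), against 6.21%. Averaged over treatments 20 of 25 were negative (80%), against 51.1% of all, and 0 of 25 were called, against 0% of all, 2 reached an unadjusted p under 0.05, against 19.1%, and 0 did not overlap, against 0.678%. Beside these values, summed markers of astrocytes and microglia lay apart between the saline groups. Those of interneurons, oligodendrocytes, endothelium and blood, and choroid plexus and ependyma overlapped there. Gfap alone read 13.00, 12.47 and 12.23 in mutant saline, against 11.59, 10.75 and 11.13 in control saline, while the other 3 measured astrocyte markers (Slc1a2, Apoe and Pla2g7) overlapped between these groups. The summed level of all 4 of the 10 listed astrocyte markers (log2 of the sum), which Gfap dominates, was 12.27 to 13.01 in mutant saline, against 10.87 to 11.62 in control saline, and 11.62 to 13.06 in mutant kainate, against 11.53 to 13.00 in control kainate. Summed microglial markers (3 of 8 measured, with Laptm5 brightest and Cx3cr1 overlapping between the saline groups) were 10.12 to 10.38 in mutant saline, against 9.56 to 9.76 in control saline, and 9.10 to 10.56 in mutant kainate, against 9.82 to 10.66 in control kainate. The part of these cells in the genotype differences was not tested.

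**Figure D4:**
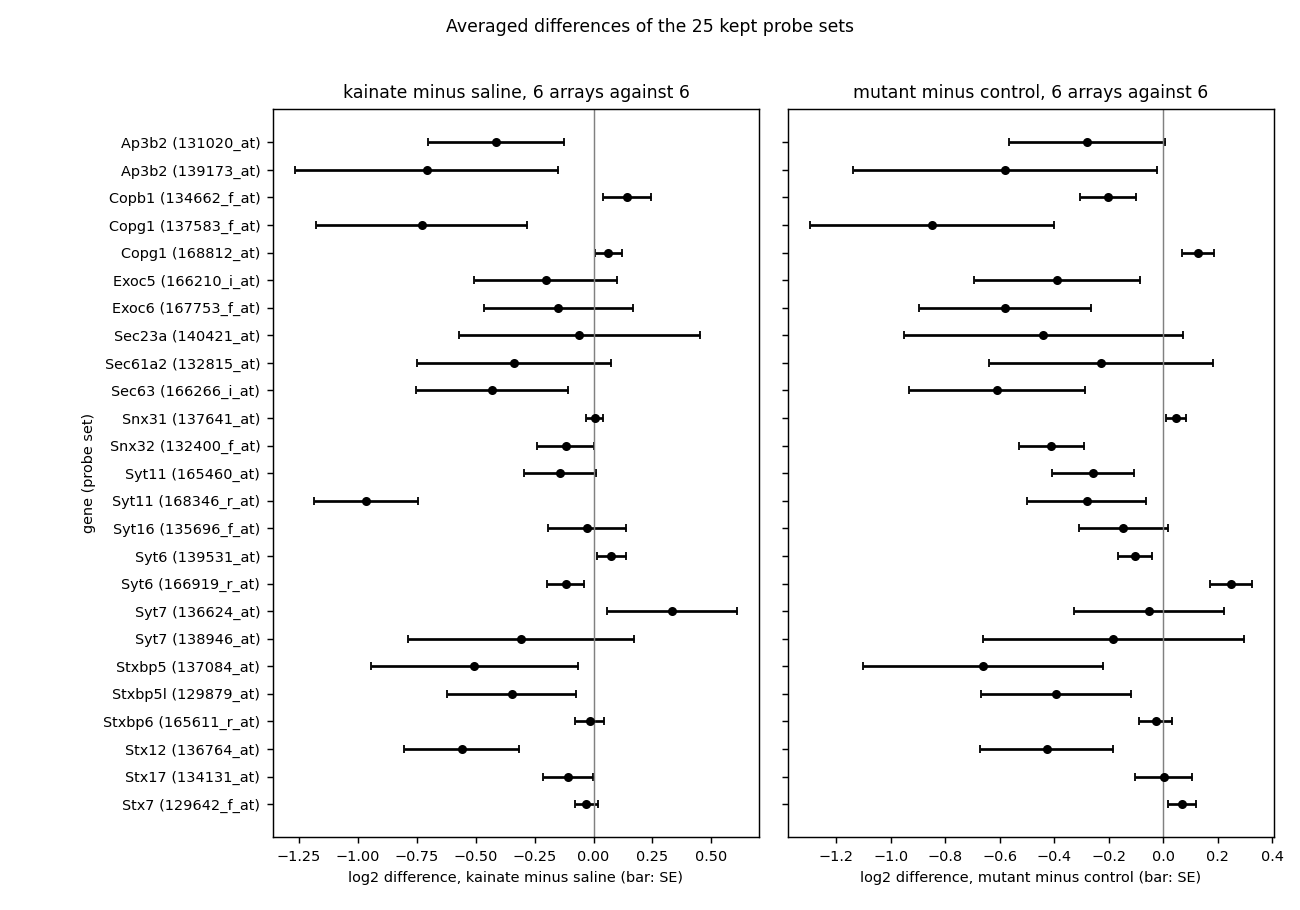
Averaged log2 differences of the 25 tested members with SE bars from the limma fit, kainate minus saline on the left and mutant minus control on the right, 6 arrays against 6. The Syt11 168346_r_at point at -0.96 lies farthest left for kainate, the Copg1 137583_f_at point at -0.85 farthest left for genotype, and none passes the threshold.

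The response to kainate was not shown to depend on genotype for any member. The interaction called 0 of 25, against 0% of all, and an unadjusted p under 0.05 was reached by 2 of 25, against 0.875%. These were Syt6 139531_at (-0.36 ± 0.13) and Copb1 (-0.47 ± 0.21), both with adjusted p = 0.973 and both at 3.83 to 4.93, near the level. The median interaction was -0.25, against -0.09 over all, and 0.01 without mutant kainate replicate 3, against -0.04 over all.

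Of 171 further genes of SNARE priming, coats, tethers and endosomal sorting, 50 had a probe set of their own and 23 were tested. None (0 higher, 0 lower) passed limma's adjusted threshold in any of the 7 comparisons, and the count with an unadjusted p under 0.05 differed between comparisons. It was 7 of 23 (30.4%) for genotype averaged over treatments, against 19.1% of all tested probe sets, and 4 of 23 (17.4%) for genotype after saline, against 12.1%. It was 3 of 23 (13.0%) both for kainate in mutants, against 8.47%, and for kainate averaged over genotypes, against 11.3%. It was 1 of 23 (4.35%) for kainate in controls, against 4.46%, and 0 for genotype after kainate and for the interaction, against 4.72% and 0.875%. Their medians were -0.14 for kainate in mutants, 0.01 for kainate in controls, 0.02 for genotype after saline and -0.11 for genotype after kainate. Scfd1, a partner of Golgi syntaxins, read 5.51, 5.00 and 5.29 in mutant kainate, against 5.41, 6.15 and 6.19 in mutant saline, and 5.41, 5.13 and 5.22 in control kainate, against 5.34, 6.02 and 5.81 in control saline. Like Syt11 168346_r_at and Stx12 it was lower after kainate in replicates 2 and 3 (-0.88), and it was 0.09 higher in replicate 1 (average -0.56 ± 0.17, adjusted p = 0.349). Napa, which encodes the alpha-SNAP that recycles SNARE complexes, had -0.81 ± 0.39 for kainate in mutants, with 9.25, 8.45 and 7.36 in mutant kainate, against 8.98, 9.23 and 9.26 in mutant saline, and it was -0.31 without mutant kainate replicate 3. Pikfyve, the lipid kinase of endosomes, had the largest averaged differences on the list, with that for kainate positive (0.60 ± 0.56 on average, adjusted p = 0.748, with 0.50 in replicate 1 and 0.65 in replicates 2 and 3, and with 0.29 without mutant saline replicate 2 and 1.09 without mutant kainate replicate 3). It read 5.15, 4.90 and 2.08 in mutant kainate, against 5.29, 6.12 and 5.67 in control kainate, and 4.65, 2.56 and 4.20 in mutant saline, against 4.78, 4.96 and 4.44 in control saline. Its averaged genotype difference of -1.29 ± 0.56 did not pass (adjusted p = 0.26) and was -0.80 without mutant kainate replicate 3. Dnm1, the GTPase of synaptic vesicle fission, read 7.85 to 8.39 in replicate 1 of all 4 groups and 4.66 to 5.85 in replicates 2 and 3, the same division by replicate as Ap3b2 and Sec61a2.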

How the data were processed

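Hippocampal RNA was hybridised to 12 Affymetrix arrays. The authors deposited log2 values made with GCRMA in R 2.4.1, per the submitters' processing notes; the GCRMA version is not given in the sources used here. Values were taken as deposited. Of 11934 probe sets 66 controls were left out, and the 3541 with log2 of at least 4 on at least 3 arrays were tested with lmFit, contrasts.fit and eBayes (limma 3.58.1, R 4.3.3) in 1 model of 4 group means, 8 residual degrees of freedom, no block. Within each of 7 comparisons p-values were adjusted by Benjamini-Hochberg over those 3541, with a threshold of 0.05. The script was tested on simulated data. The labels give no depth, and 3 arrays a group limit the precision. The p-values measure the spread between arrays of a group. Without a block this spread holds the division by replicate number and the low array, mutant kainate replicate 3, besides that between pools.

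Members and lists were chosen with earlier results of these data known. Per-array values are given for members among the 4 smallest unadjusted p under 0.05 of a comparison, the brightest of a family, or with several tested probe sets, and for others chosen after their values were seen. All 75 member symbols matched the RefSeq gene table. Over the array 7717 probe sets have 1 symbol, 150 several and 4001 none.

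Groups share replicate numbers. Deviations of same-numbered arrays from their group means correlated at 0.383 to 0.627 for kainate in controls, 0.47 to 0.855 for genotype after saline and 0.19 to 0.578 for genotype after kainate, so numbers pair those samples, but at -0.0779 to 0.479 for kainate in mutants. Alternatives were no filter, a stricter filter (log2 5), quantile normalization, only the arrays compared, both blocks, eBayes with trend and robust, and leaving out arrays.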

Additional observations from a re-analysis of the deposited data

Results flagged for a closer look

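For 3 tested members every mutant array lay on opposite sides of the control mean of its treatment after kainate and after saline. The share over all tested probe sets was not computed. Against single control arrays, Copb1 overlapped after saline (4.25 to 4.32 in mutants, against 4.13 to 4.42). Stxbp6 overlapped after kainate (5.35 to 5.59 in mutants, against 5.53 to 5.81). Copb1 had an interaction of -0.47 ± 0.21 (-0.43 after kainate and 0.03 after saline), Syt6 139531_at of -0.36 ± 0.13 (-0.28 and 0.08) and Stxbp6 of -0.23 ± 0.12 (-0.14 and 0.09). The last was -0.15 without control kainate replicate 3. In the limma interaction test none of the 3 passed (adjusted p = 0.973 for each). The Copb1 and Syt6 probe sets lie near log2 4, where the size of a difference is uncertain.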

How the results depend on the processing

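The count of members called stayed at 0 in all 7 comparisons under every alternative run, except that leaving out mutant kainate replicate 1 called 1 member, Syt11, for kainate in mutants and averaged over genotypes (range 0 to 1). In that fit 1.89% and 1.58% of all tested probe sets passed. In the main fit 0% to 0.141% of all passed, so counts near 0 are not particular to the members. With the replicate number as a block 0 members were called in each comparison, and the averaged Syt11 168346_r_at kainate difference was -0.96 (adjusted p = 0.235). Of 308 alternative values for 16 member differences, 306 kept direction and side of the threshold and 2, those of Syt11, passed. Many of the 308 could not change in size or direction. With all arrays kept, a block leaves the difference as it was, as does leaving out an array of a group not compared. The tally therefore overstates how far the differences were tried. Over single arrays left out, the averaged Syt11 difference ran from -1.17 to -0.80 and that of Snx32 between genotypes from -0.48 to -0.35. Quantile normalization gave -0.03 for Snx32 after kainate, against -0.42 with the deposited values. Leaving out single arrays moved the members' median for genotype after kainate between -0.62 and -0.08. Fits with only the arrays compared were not made for the averaged and interaction comparisons, which use all groups. Differences of members near log2 4 are limited by signal over background.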
